A study of Bos taurus with 30 samples.

Results

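The genes described here encode the proteasome, the protease that degrades ubiquitin-tagged proteins, together with its activators, its inhibitor and its assembly chaperones. Members were taken by symbol, as every gene of the tables whose name starts with PSMA, PSMB, PSMC, PSMD, PSME, PSMF or PSMG followed by a digit. This gave 43 of the 10476 genes in the tables. A further 5 symbols of the complex, PSMA1, PSMA2, PSMA8, PSMB10 and PSMB11, were not analysed here, so that of the immunoproteasome only PSMB8, PSMB9 and the activator genes PSME1 and PSME2 could be followed. In the tables these carry the Ensembl gene IDs ENSBTAG00000003039, ENSBTAG00000008954, ENSBTAG00000021395 and ENSBTAG00000005814.

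RNA came from endometrial cells of Holstein-Friesian cows of mixed parity on 1 commercial farm, collected by cytobrush at 7 days postpartum (DPP) and grouped by the diagnosis made at 21 DPP. Of 27 cows, 10 remained healthy, 9 developed cytological endometritis (CYTO, at least 18% polymorphonuclear cells, PMN, in the smear, labelled sub-clinical), and 8 developed purulent vaginal discharge (PVD, labelled clinical). The same threshold at 7 DPP divided the healthy cows into 5 with low PMN and 5 with high PMN, and the CYTO cows into 5 with low and 4 with high PMN. All PVD cows had high PMN, 4 with PVD alone and 4 with PVD with CYTO. No agent or genotype distinguishes the groups, each library came from 1 cow, and a cytobrush gathers epithelium together with leukocytes and other cells of the uterine wall. The study asked which transcripts at 7 DPP differed between cows with different outcomes at 21 DPP, and which accompanied inflammation that later resolved.

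The proteasome is a barrel of stacked rings. Alpha subunits form the outer rings and beta subunits the inner ones, of which PSMB5, PSMB6 and PSMB7 carry the active sites. A regulatory cap of ATPase and non-ATPase subunits recognises, unfolds and feeds in the substrate. Under interferon gamma, and constitutively in many leukocytes, newly made PSMB8 takes the place of PSMB5 and PSMB9 that of PSMB6 to form the immunoproteasome, while PSME1 and PSME2 build an alternative cap. Both changes alter the peptides that the transporters TAP1 and TAP2 carry to MHC class I molecules. In the bovine RefSeq gene order TAP1 lies between PSMB8 and PSMB9, and EMC9 is the gene between PSME2 and PSME1.

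The libraries held 11922966 to 39202083 counted reads (median 23107772), and values are CPM, each gene's counted reads scaled to the same library total. A single read was worth 0.0255 to 0.0839 CPM, and the smallest number of reads behind any member in any cow was 52, for PSMB9. The members' CPM summed to between 3774 and 5177 in all but 2 cows, s2161 at 3510.2 and s1239 at 2155, both from the PVD with CYTO group. Cow s1239 also had 27318 CPM of summed neutrophil markers, the most of the 27 cows, and 2681 CPM of IRF1, a transcription factor induced by interferons. Values that rest on s1239 are therefore given with and without it. Of the markers of the sampled tissue, 11 of 13 listed for epithelium and 10 of 10 listed for stroma had an entry, with none at 0 in every cow. Their summed levels ranged from 434 to 6324 CPM for epithelium and from 117 to 44286 CPM for stroma. In such bulk samples fewer cells of a type and less RNA per cell cannot be told apart.

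Most proteasome genes varied little between cows. The SD of log2(CPM + 1) over the 27 cows had a median of 0.37 over the members and of 0.58 over all genes, and 41 of the 43 members lay below the all-gene median. The 39 members other than PSMB8, PSMB9, PSME1 and PSME2 spanned 0.25, for the cap chaperone PSMD9, to 0.56, for the cap chaperone PSMD10 (gankyrin). PSMB9 had an SD of 1.04 (percentile 79.6 of all genes), with a 27.1-fold distance between its lowest and its highest cow. PSMB8 stood at 0.58 (percentile 50.8), with a 5.11-fold distance. The inducible activator genes did not share this spread, since PSME1 had an SD of 0.35 (percentile 9.27) and PSME2 of 0.31 (percentile 5.02). For comparison, PSMD2, a scaffold subunit of the cap, spanned 5.49-fold and PSMD10 spanned 8.80-fold.

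**Figure D1:**
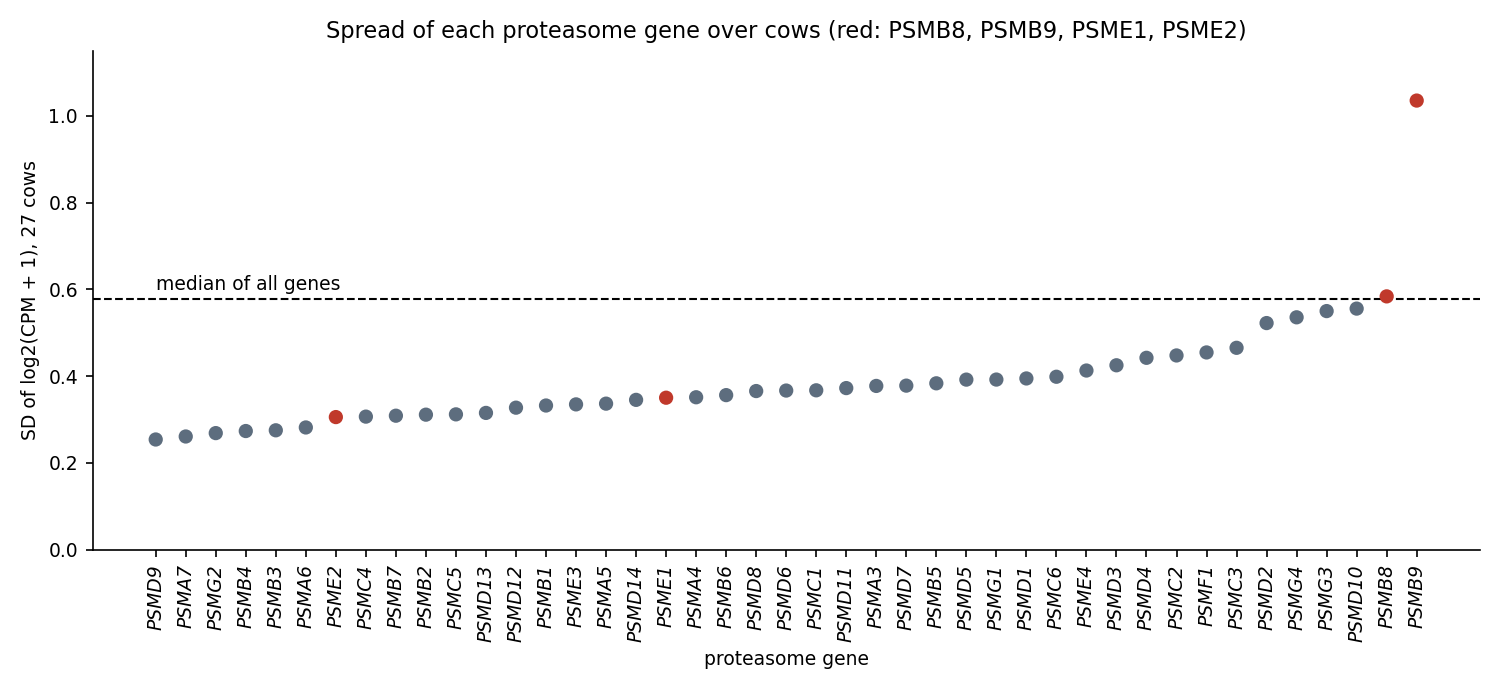
Spread of each of the 43 proteasome genes over the 27 cows as the SD of log2(CPM + 1), 1 point per gene in ascending order, with PSMB8, PSMB9, PSME1 and PSME2 in red and the median of all genes as a dashed line. PSMB9 at 1.04 and PSMB8 at 0.58 are the members above the line, and PSME1 and PSME2 lie below it.

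PSMB9, the immunoproteasome counterpart of PSMB6, ranged widely within every group. Healthy cows with low PMN had 28.3, 5.37, 15.3, 38.6 and 8.23 CPM, and healthy cows with high PMN had 5.70, 16.2, 4.36, 8.77 and 9.78 CPM. CYTO cows with low PMN had 20.8, 6.66, 4.56, 8.58 and 2.47 CPM, and those with high PMN had 22.8, 28.7, 8.02 and 10.8 CPM. The groups overlapped, with the lowest cow among the CYTO cows with low PMN. In cows with PVD alone PSMB9 was at 5.44, 38.4, 13.5 and 10.4 CPM, and in PVD with CYTO it was at 67.0, 6.31, 8.17 and 6.93 CPM. The value of 67.0 CPM belonged to s1239 and was the highest of the study, while the other 3 cows of that group lay below 9 CPM. The SD within groups was 1.05 on the log2 scale, as large as that over all cows.

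PSMB8, which takes the place of PSMB5, followed at a smaller amplitude. It stood at 102, 64.7, 85.9, 143 and 59.6 CPM in healthy cows with low PMN, and at 56.1, 133, 53.1, 80.8 and 51.2 CPM in healthy cows with high PMN. CYTO cows with low PMN had 94.7, 72.5, 61.9, 59.1 and 39.8 CPM, and those with high PMN had 128, 139, 78.1 and 70.0 CPM. All 4 CYTO cows with high PMN lay above the mean of the CYTO cows with low PMN, but these groups overlapped. Cows with PVD alone had 51.7, 203, 97.6 and 75.5 CPM, and those with PVD with CYTO had 175, 58.9, 102 and 84.0 CPM. The highest values came from s2520 (PVD alone) and s1239, which were also the 2 highest PVD cows for PSMB9. A moderated F test over the 6 groups (limma) gave adjusted p = 0.582 for PSMB8 and 0.619 for PSMB9.

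**Figure D2:**
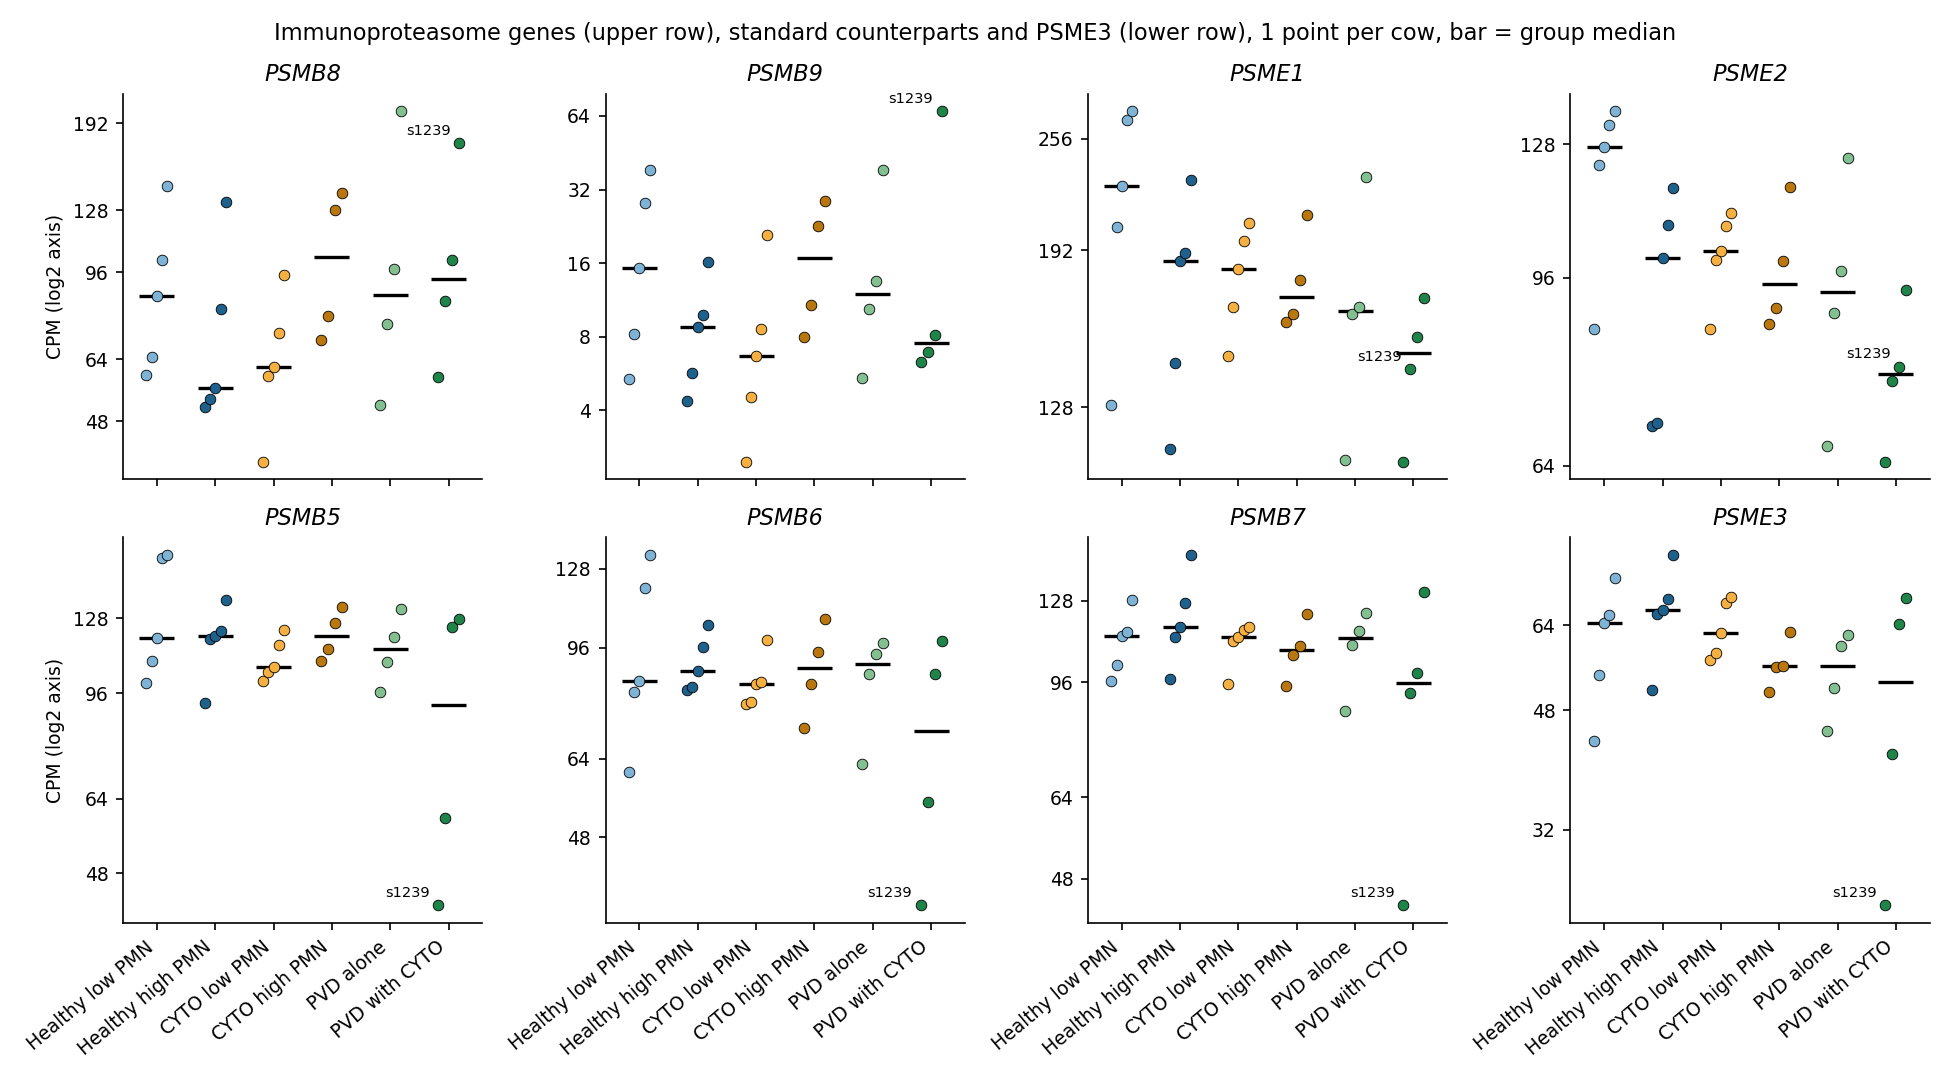
CPM of PSMB8, PSMB9, PSME1 and PSME2 (upper row) and of PSMB5, PSMB6, PSMB7 and PSME3 (lower row) in each cow of the 6 groups, on a log2 axis with a bar at the group median. PSMB8 and PSMB9 scatter within every group, and s1239 stands at 67.0 CPM of PSMB9 but at the low end of the lower row, with 42.5 CPM of PSMB5.

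PSME1 and PSME2, the subunits of the inducible cap, had another profile. PSME1 was at 275, 129, 204, 269 and 227 CPM in healthy cows with low PMN, and at 115, 187, 229.8, 191 and 144 CPM in healthy cows with high PMN. CYTO cows had 206, 183, 166, 197 and 146 CPM with low PMN, and 210.1, 178, 163 and 159 CPM with high PMN. The CYTO groups overlapped almost wholly, and the 2 highest values of the study were those of healthy cows with low PMN. Cows with PVD alone had 112, 232, 163 and 166 CPM, and those with PVD with CYTO had 141, 111, 169.6 and 153 CPM. The order of the group means, from 220.5 ± 59.2 (SD, n = 5) in healthy cows with low PMN to 144 ± 24.6 CPM (SD, n = 4) in PVD with CYTO, had no neighbours that differed beyond their spread.

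PSME2 ordered the groups similarly, from 121 ± 20.6 CPM (SD, n = 5) in healthy cows with low PMN to 78.5 ± 11.9 CPM (SD, n = 4) in PVD with CYTO. Between these stood the means of 92.8 ± 21.6 in healthy cows with high PMN, 101 ± 9.42 and 98.2 ± 13.4 in CYTO cows with low and high PMN, and 94.3 ± 23.8 CPM in PVD alone. Its values overlapped between all groups. In CPM, s1239 was not raised for the cap genes as it was for PSMB8 and PSMB9, at 141 CPM of PSME1 and 79.2 CPM of PSME2. The members' summed CPM was lowest in this cow, at 2155, and its cap genes relative to the rest of its library were not tested. The moderated F test gave adjusted p = 0.466 for PSME1 and 0.233 for PSME2.

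The standard catalytic subunits were steady apart from 2 cows. PSMB5, the chymotrypsin-like subunit, lay between 92.3 and 164 CPM in 25 cows, and was at 42.5 CPM in s1239 and 59.5 CPM in s2161. PSMB6, the caspase-like subunit, stood at 37.5 and 54.5 CPM in these cows, against 61.0 to 135 CPM in the others. PSMB7, the trypsin-like subunit, was at 43.7 CPM in s1239 and at 92.4 CPM in s2161, so that only s1239 lay below the remaining range of 86.6 to 150.5 CPM. PSME3, which encodes a nuclear activator related to PSME1 and PSME2, was also lowest in these 2 cows (24.8 and 41.4 CPM). In CPM the cow with the most PSMB9 therefore had the least PSMB5, PSMB6, PSMB7 and PSME3. The low values were not particular to these genes, since the members' summed CPM was also lowest in s1239 (2155). The all-gene median log2 fold change of PVD with CYTO against healthy cows with high PMN moved from -0.36 to -0.063 without s1239.

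The replacement of standard by immune catalytic subunits was followed as the ratio of their CPM within each library, which does not depend on how libraries are scaled. The values are not divided by transcript length, so only differences between cows are read from them. The PSMB8 to PSMB5 ratio had a median of 0.630 in healthy cows with low PMN, 0.475 in healthy cows with high PMN, 0.593 and 0.829 in CYTO cows with low and high PMN, 0.759 in PVD alone and 1.08 in PVD with CYTO. Every group overlapped every other, and the extremes were 0.344 in a CYTO cow with low PMN and 4.12 in s1239. The PSMB9 to PSMB6 ratio had medians of 0.181, 0.0840, 0.0792, 0.165, 0.151 and 0.104 in the same order. It ranged from 0.0314 in that CYTO cow to 1.79 in s1239, and did not exceed 0.410 elsewhere.

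**Figure D3:**
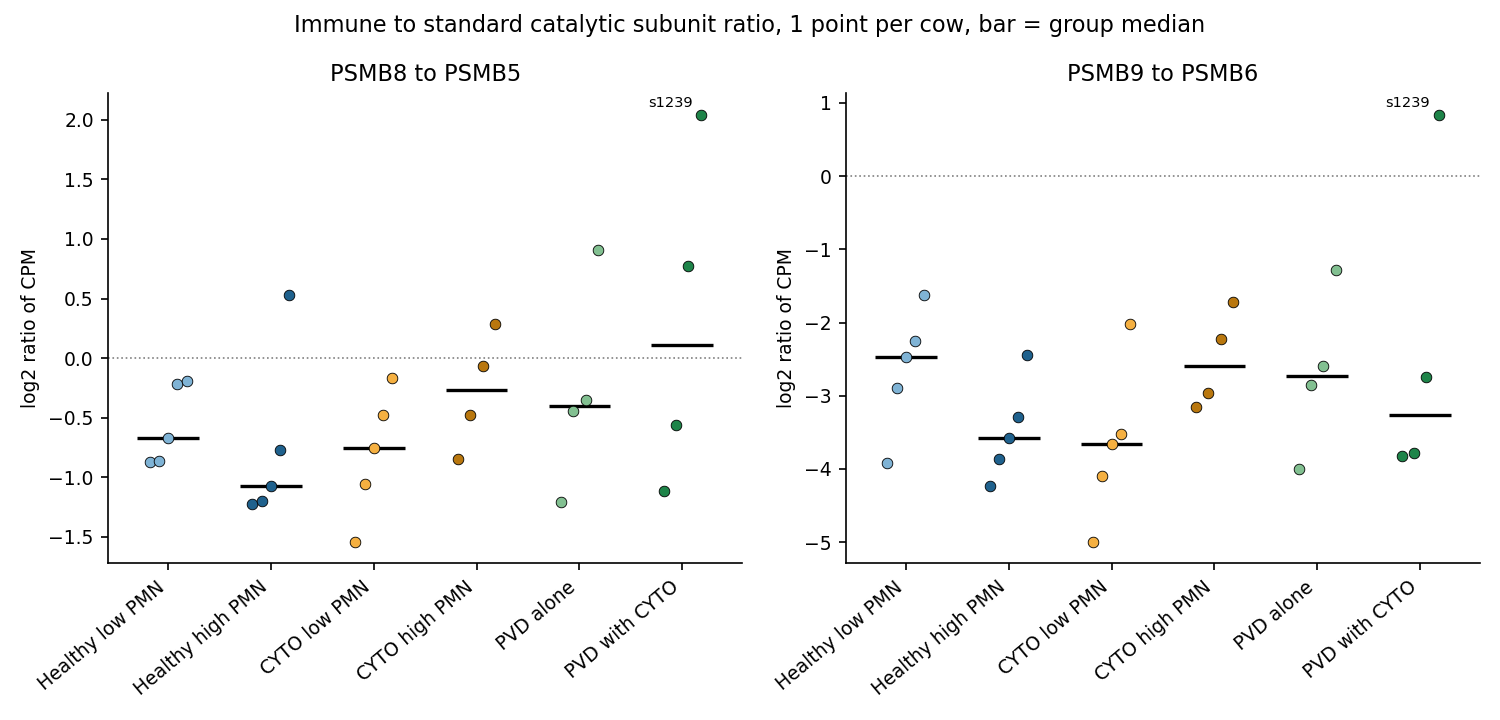
Log2 ratio of CPM of PSMB8 to PSMB5 and of PSMB9 to PSMB6, 1 point per cow in the 6 groups, with a bar at the group median and a dotted line at equal CPM. The groups overlap in both panels, and s1239 is the highest cow in each, at 2.04 and 0.84.

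None of the 20 tests of these ratios (2 ratios in 10 comparisons, exact two-sided permutation tests) passed adjustment, the lowest adjusted p being 0.556. The lowest unadjusted exact p, 0.0794, was that of PSMB9 to PSMB6 between healthy and CYTO cows with high PMN, from a mean log2 ratio of -3.48 ± 0.68 (SD, n = 5) to -2.52 ± 0.67 (SD, n = 4). The difference was 0.97, with 4 of 4 CYTO cows above the healthy mean. In CYTO cows this log2 ratio was 1.14 higher with high than with low PMN (exact p = 0.111), whereas in healthy cows it was 0.85 lower with high than with low PMN, as -3.48 against -2.63 (exact p = 0.127). The smallest exact p these designs allow is 0.00794.

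In the comparisons with PVD with CYTO and with all PVD cows the ratio differences moved with s1239. The PSMB9 to PSMB6 log2 ratio of PVD with CYTO exceeded that of healthy cows with high PMN by 1.10, and by 0.03 without s1239. PSMB8 to PSMB5 exceeded it by 1.03 (exact p = 0.198), and by 0.45 without s1239. Over all PVD against all healthy cows the PSMB8 to PSMB5 difference was 0.66 (exact permutation p = 0.121), and 0.37 without s1239 (exact permutation p = 0.287). Against PVD alone and against CYTO with high PMN, the PSMB9 to PSMB6 differences of PVD with CYTO were 0.31 and 0.14, and became -0.77 and -0.93 without s1239. In cows with PVD alone the PSMB9 to PSMB6 and PSMB8 to PSMB5 log2 ratios exceeded those of healthy cows with high PMN by 0.80 and 0.47, and by 0.33 and 0.081 without s2520.

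Across the 27 cows 26 relations were computed, on values that share each library's total and cell composition, with permutation p-values of which 1e-05 is the smallest possible. The inducible genes formed 2 tight pairs. PSMB8 and PSMB9 had Pearson's r = 0.90 and Spearman's rho = 0.83 on the log2(CPM + 1) scale, with r = 0.86 without the 2 cows farthest from the median of PSMB8 (permutation p = 1e-05 for both, adjusted 5.2e-05 and 6.5e-05). Within healthy, CYTO and PVD cows r was 0.85, 0.94 and 0.91. PSME1 and PSME2 had r = 0.94 and rho = 0.93 with the same p-values, r = 0.92 without the farthest 2 cows, and r = 0.94, 0.88 and 0.91 within the outcomes. Between the pairs, PSMB9 and PSME1 had r = 0.47 and rho = 0.48 (permutation p = 0.0132 and 0.0133, adjusted 0.0286 and 0.0315), and PSMB8 and PSME1 had r = 0.45 and rho = 0.46 (permutation p = 0.0191 and 0.0163, adjusted 0.0356 and 0.0326). Without the 2 cows farthest from the median of PSMB9 or PSMB8, these r were 0.58 and 0.52. Within healthy, CYTO and PVD cows r was 0.63, 0.69 and 0.49 for PSMB9 with PSME1, and 0.53, 0.62 and 0.75 for PSMB8 with PSME1. Differences between coefficients were not tested.

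Genes of antigen presentation were set beside 1 member of each pair. PSMB9 had r = 0.87 with NLRC5, the transactivator of MHC class I genes, 0.85 with TAP1, 0.82 with TAP2, 0.68 with B2M, the light chain of MHC class I, and 0.66 with IRF1. The corresponding rho were 0.84, 0.82, 0.73, 0.65 and 0.73, and without the 2 farthest cows r was 0.80, 0.77, 0.74, 0.74 and 0.60. For NLRC5, TAP1 and TAP2 the permutation p of r was 1e-05 (adjusted 5.2e-05), for B2M 0.00012 (adjusted 0.00039) and for IRF1 0.00016 (adjusted 0.00046). PSME1 had r = 0.70 and rho = 0.67 with B2M (permutation p = 6e-05 and 0.00013, adjusted 0.00026 and 0.00048). Its r was 0.32 with TAP1, 0.27 with NLRC5, 0.18 with IRF1 and 0.10 with TAP2, with adjusted permutation p from 0.145 to 0.661. Without the 2 cows farthest from the median of the other gene these r were 0.47, 0.39, 0.46 and 0.26, and within healthy cows that with IRF1 was 0.79.

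The ratios were also set beside the mean log2 level of 4 marker lists. PSMB8 to PSMB5 had r = 0.62 and rho = 0.59 with the interferon gamma list (15 of 22 genes in the table) and r = 0.66 and rho = 0.49 with neutrophil markers (12 of 19). The permutation p of r was 0.00044 (adjusted 0.0011) and 0.00012 (adjusted 0.00039), and that of rho 0.0014 (adjusted 0.0041) and 0.0107 (adjusted 0.0279). Without the 2 cows farthest from the median of the list, s1340 and s1239, r was 0.49 and 0.57. Within healthy cows it was 0.24 and 0.37, within CYTO cows 0.77 and 0.54, and within PVD cows 0.73 and 0.88. PSMB9 to PSMB6 had r = 0.47 and 0.46 with these lists (adjusted permutation p = 0.0286 and 0.0301) and rho = 0.32 and 0.27 (adjusted permutation p = 0.142 and 0.219). Without s1340 and s1239 its r was 0.34 and 0.35. Its r was -0.36 and -0.34 within healthy cows, so that the relation did not hold in that outcome. With macrophage markers r was 0.05 and -0.27 for the 2 ratios, and with T and NK lymphocyte markers, of which only 7 of 20 were in the table, 0.31 and 0.08.

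**Figure D4:**
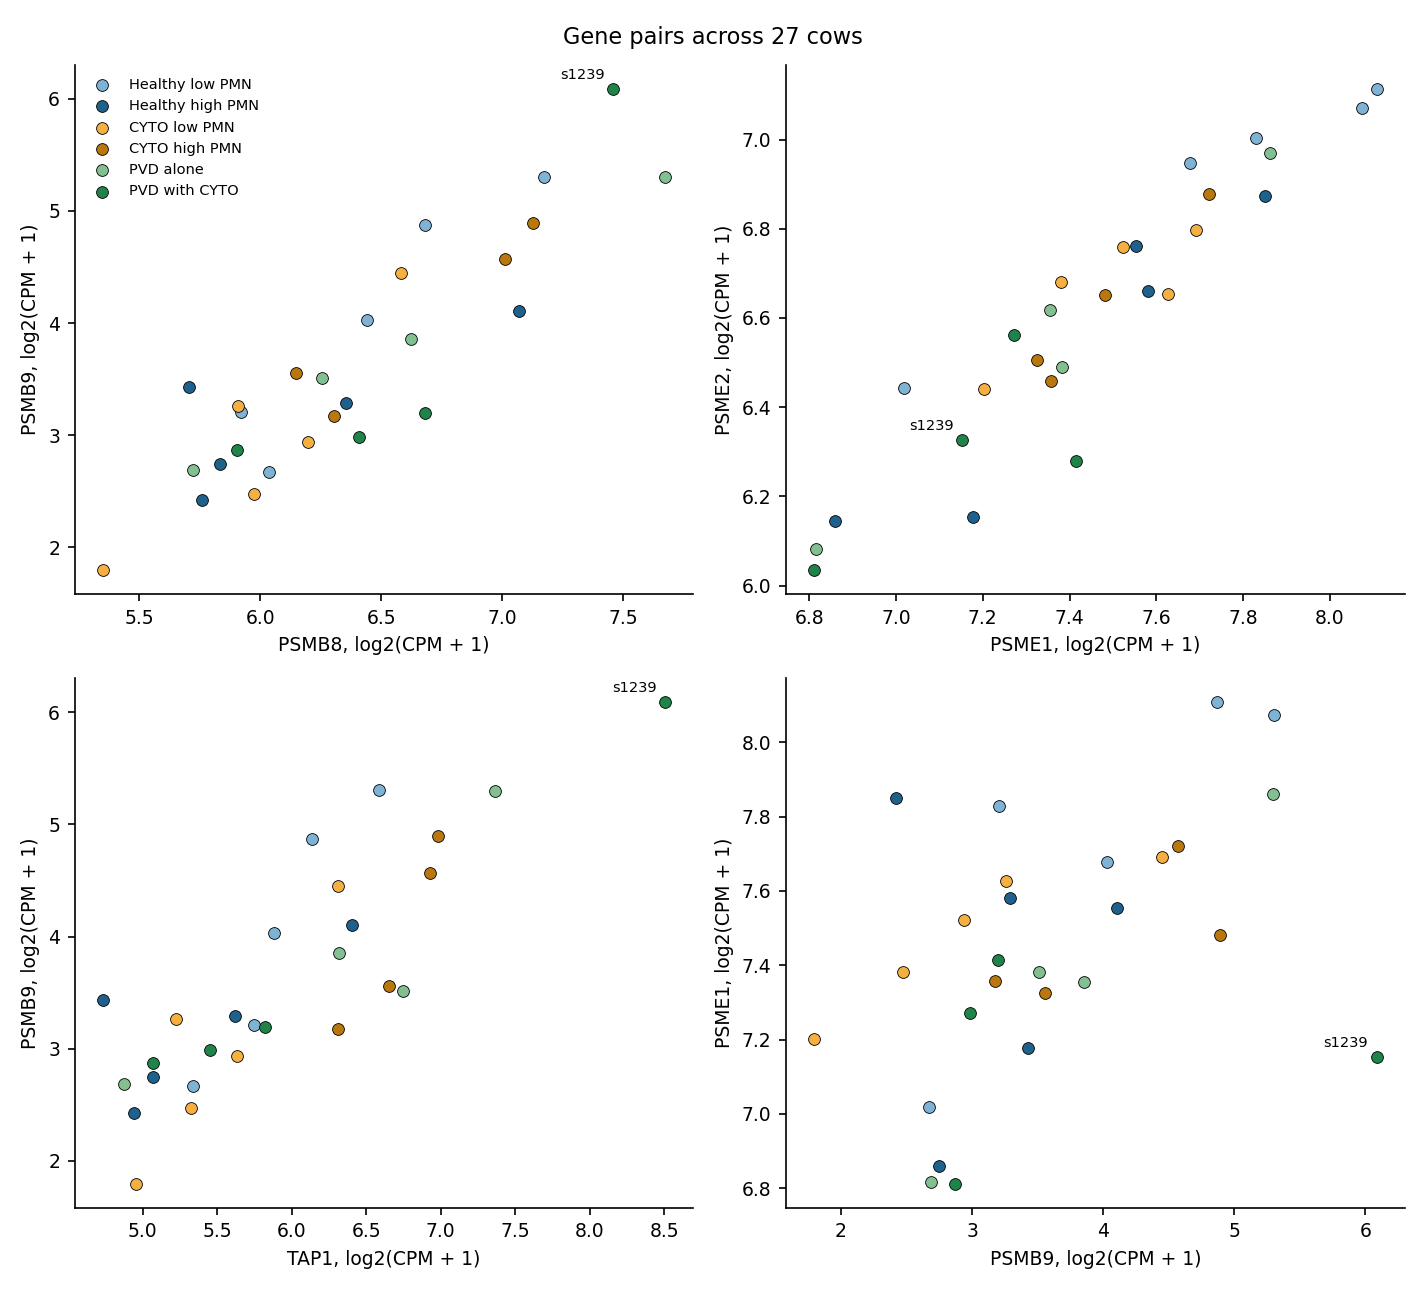
Log2(CPM + 1) of PSMB9 against PSMB8, PSME2 against PSME1, PSMB9 against TAP1 and PSME1 against PSMB9, 1 point per cow coloured by group, 27 cows. The first 3 panels form narrow bands (r = 0.90, 0.94 and 0.85) and the last a broader cloud (r = 0.47) in which s1239 has the highest PSMB9 without high PSME1. Without the 2 cows farthest from the median of PSMB9, s1239 and s2224, r in the last panel was 0.58.

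No member was called, at a limma adjusted p below 0.05 with a log2 fold change beyond 1, in any of 10 comparisons of 2 groups, and none was by DESeq2 or edgeR on the recovered reads. All 43 members passed the filter on low values in each. Of all genes tested, limma called 8.72% between CYTO cows with low and high PMN, 0.412% between healthy and CYTO cows with high PMN, and 0% in each of the other 8 comparisons. At an unadjusted p below 0.05 there were 9 members between CYTO cows with low and high PMN (40.2% of all genes), 3 between healthy cows with low and high PMN (25.8%), 2 between healthy and PVD cows (21.3%) and none in the other 7. In those 7 the share of all genes was 13.6% between healthy and CYTO cows with low PMN, 2.06% between all healthy and CYTO cows and 0.115% between the PVD groups. It was 4.83%, 0.71% and 1.63% for CYTO, PVD alone and PVD with CYTO against healthy cows with high PMN, and 1.29% between CYTO with high PMN and PVD with CYTO. These counts depended on the scaling. Under TMM scaling there were 15 members (3758 of 10443 genes) between CYTO cows with low and high PMN. Between healthy and CYTO cows with low PMN there were 5 (1020 of 10428 genes). Between healthy cows with low and high PMN there were 2 (2831 of 10424 genes), and between healthy and PVD cows 2 (2222 of 10454). DESeq2 gave 18 members (4239 genes) and 8 members (1141 genes) in the first 2 of these comparisons.

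Fold changes are on the log2(CPM + 1) scale, as the second group named minus the first, and comparisons that share a group share its cows. In CPM the median fold change of all genes ran from -0.36 (healthy with high PMN against PVD with CYTO) to 0.20 (healthy against CYTO with low PMN), and TMM scaling brought it to between -0.02 and 0.02 in all 10 comparisons. The members' medians are therefore given beside the all-gene median.

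Inflammation that developed into CYTO was compared through CYTO cows with low against high PMN. At an adjusted p below 0.05 without a minimum fold change, 3 of 43 members passed, 1 higher and 2 lower, where 25% of all genes did (7.8% higher and 17.2% lower). The groups did not overlap for these 3 members, where the same held for 23.9% of all genes. The members' median log2 fold change was 0.02 beside -0.14 over all genes, with 34 of 43 members above the all-gene median.

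The members that fell were PSMD10 and PSMG1. PSMD10, a chaperone of cap assembly, was at 32.9, 21.5, 23.0, 23.7 and 24.1 CPM with low PMN and at 16.5, 14.8, 17.3 and 14.5 CPM with high PMN, which gave a log2 fold change of -0.62 (SE 0.15, limma adjusted p = 0.0176). PSMG1, a chaperone of the alpha ring, was at 56.4, 60.9, 61.4, 56.8 and 55.1 CPM against 47.4, 39.6, 41.2 and 46.2 CPM, for a log2 fold change of -0.41 (SE 0.10, limma adjusted p = 0.0210). Every CYTO cow with high PMN lay below every CYTO cow with low PMN for both genes. PSMD8, a lid subunit of the cap, rose from 94.2, 113, 112, 115 and 109 CPM to 189.6, 152, 129 and 154 CPM, for a log2 fold change of 0.51 (SE 0.13, limma adjusted p = 0.0239), again without overlap.

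These calls depended on the scaling of the libraries. The median of all genes moved from -0.14 to 0.01 under TMM scaling, and relative to it PSMD10 (-0.47, adjusted p = 0.0702) and PSMG1 (-0.25, adjusted p = 0.0847) no longer passed while PSMD8 did (0.67, adjusted p = 0.00655). Without s2039 none of the 3 passed, with adjusted p of 0.0579, 0.0691 and 0.0634. PSMD10 was also lost without s2184, PSMG1 without s2167 and without s2178, and PSMD8 without s2178, s2421, s1944 or s2184. PSMB8 and PSMB9 were 0.65 (SE 0.29, adjusted p = 0.122) and 1.06 (SE 0.55, adjusted p = 0.176) higher with high PMN, with 4 of 4 cows above the mean of the low PMN group. DESeq2 gave 0.80 for PSMB8 with an adjusted p of 0.0441, where 14 of 43 members and 3082 of 10443 genes passed. Without s1183, the CYTO cow with low PMN that was highest for both, they reached 0.79 and 1.43 with limma adjusted p of 0.0453 and 0.0351, where 3692 of 10430 genes and 6 of 43 members passed. The mean log2 level of epithelial markers was 8.43 in s1183 and 5.81 to 6.69 in the other CYTO cows with low PMN, that of stromal markers 5.69 against 10.2 to 10.5 and that of macrophage markers 4.74 against 6.65 to 7.81, and their part in these calls was not tested. PSME1 and PSME2 stood at -0.01 and -0.04 (adjusted p = 0.955 and 0.822).

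Cell markers moved with this comparison. Summed neutrophil markers ranged from 372 to 763 CPM with low PMN and from 4281 to 7212 CPM with high PMN, and 10 of 12 were called, all higher. Of the interferon gamma list 3 of 15 were called and of the type I interferon list 9 of 20. The part of these cells and signals in the members' values was not tested.

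Inflammation that later resolved was compared through healthy cows with low against high PMN. Of the 43 members 28 had a positive and 15 a negative log2 fold change, and their median was 0.09 beside 0.14 over all genes (-0.050 beside -0.0050 under TMM scaling). The 3 members at an unadjusted p below 0.05 were higher with high PMN, where 16.7% of all genes were higher and 9.15% lower at this level. Among the members that lay higher, PSMD2 and PSMD11 of the cap had the largest differences. PSMD2 was at 230.1, 442, 314, 244 and 191 CPM with low PMN and at 459, 379, 403, 510.4 and 440.1 CPM with high PMN, which gave a log2 fold change of 0.68 (SE 0.23, limma adjusted p = 0.126). PSMD11, a lid subunit, differed by 0.54 (SE 0.21, limma adjusted p = 0.145). Cow s1890, with low PMN, lay within the high PMN range for both, and without it PSMD2 and PSMD11 passed with limma adjusted p of 0.0117 and 0.0184, as did 2506 of the 10436 genes tested. The mean log2 level of its macrophage markers was 7.52 (1.93 to 3.87 in the other cows with low PMN), that of its stromal markers 10.1 (3.15 to 8.0) and that of its epithelial markers 5.31 (7.21 to 8.61), and their part in these calls was not tested. PSMB2, a structural beta subunit, was the member whose groups did not overlap, where this held for 1.17% of all genes, with 63.6 to 104 CPM against 106 to 121 CPM.

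The inducible genes lay lower with high PMN in these healthy cows, each short of the threshold. The log2 fold changes were -0.31 for PSMB8 (SE 0.32, adjusted p = 0.564) and -0.82 for PSMB9 (SE 0.53, adjusted p = 0.345), with 4 of 5 cows below the mean of the low PMN group for each. They were -0.34 for PSME1 (adjusted p = 0.427) and -0.40 for PSME2 (adjusted p = 0.255). In the same comparison 12 of 12 macrophage, 10 of 10 stromal, 6 of 6 endothelial and 12 of 12 neutrophil markers were higher (median log2 fold changes 4.18, 4.12, 2.18 and 1.84) and the epithelial markers had a median of -1.87, with no gene of these lists called. Their part in the members' values was not tested.

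Whether high PMN went with a different change in healthy and in CYTO cows was asked with an interaction term over the 19 cows. It was positive for PSMB9 (1.88, SE 0.80, unadjusted p = 0.0299, limma adjusted p = 0.281) and for PSMB8 (0.95, SE 0.45, unadjusted p = 0.0492, limma adjusted p = 0.306). Leaving out each cow in turn gave 1.56 to 2.25 and 0.77 to 1.18. Among the members PSMD9 also had an unadjusted p below 0.05 (0.50, limma adjusted p = 0.272), so that 3 of 43 members had a positive term at this level, where 2.43% of all genes did. No member had a negative term at this level, where 13.8% of all genes did. In both directions together it was 3 of 43 members beside 16.2% of all genes. No member passed adjustment, and 0.0764% of all genes did. For PSME1 and PSME2 the terms were 0.32 and 0.35 (adjusted p = 0.591 and 0.453).

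Between healthy and CYTO cows that both had high PMN, the members' median log2 fold change was -0.08, as was that of all genes. PSMB8 and PSMB9 were 0.50 and 0.85 higher in CYTO (limma adjusted p = 0.9999 for each), while PSME1 and PSME2 differed by 0.07 and 0.10. Between healthy and CYTO cows with low PMN the sign was opposite, at -0.45 for PSMB8 and -1.03 for PSMB9 (adjusted p = 0.432 and 0.407). Cell markers moved there as well, with 10 of 10 stromal, 12 of 12 macrophage and 6 of 6 endothelial markers higher in CYTO (median log2 fold changes 3.70, 3.23 and 2.06) and 10 of 11 epithelial markers lower (median -0.91), and their part in the members' values was not tested. In this comparison the members had a median of -0.02 beside 0.20 over all genes, with 4 of 43 above the all-gene median. Over all healthy and CYTO cows the differences were -0.01 for PSMB8, -0.15 for PSMB9, -0.09 for PSME1 and -0.07 for PSME2. The members above the all-gene median there numbered 1 of 43, 5 with DESeq2 or edgeR, and 1 to 8 with each cow left out (8 without s1831).

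**Figure D5:**
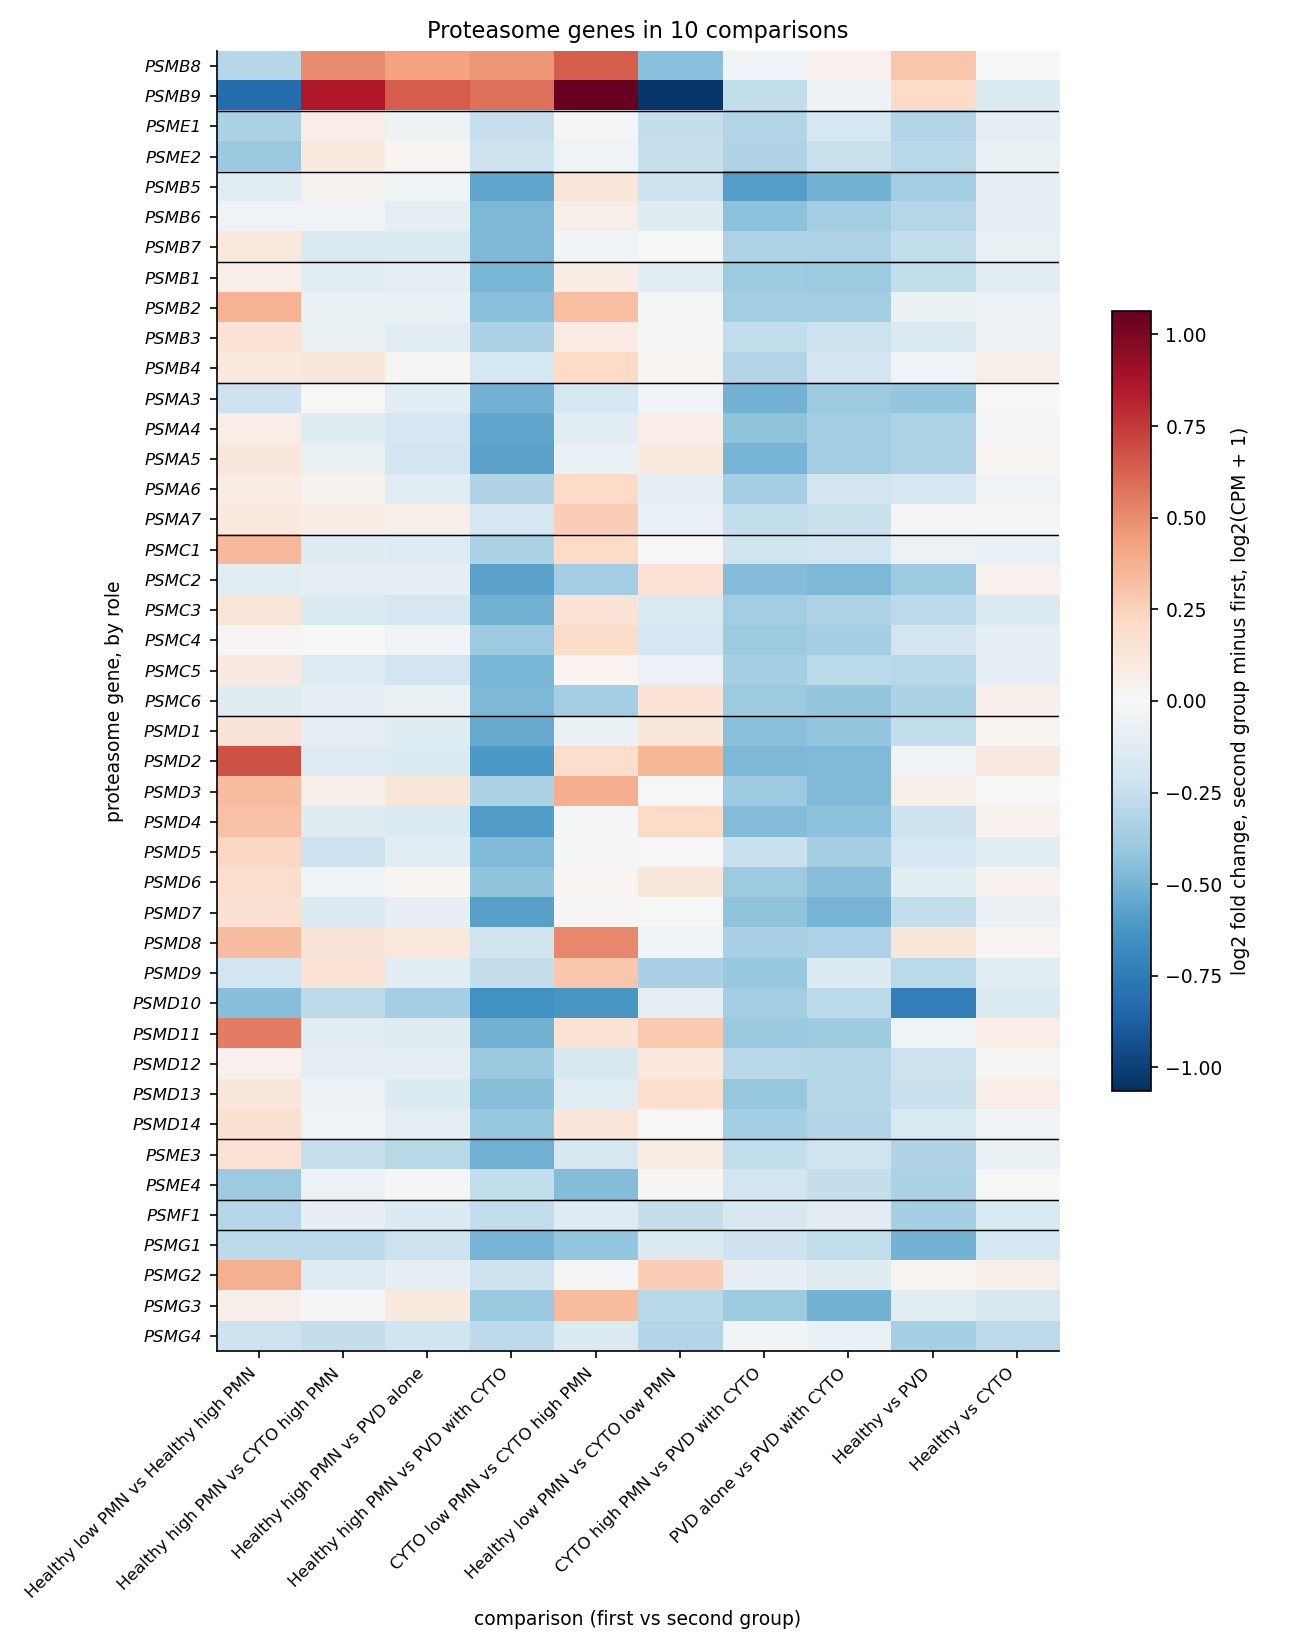
Log2 fold change of the 43 members (grouped by role) in the 10 comparisons, on the log2(CPM + 1) scale, red where the second group named is higher and blue where it is lower. PSMB9 carries the darkest red, for CYTO cows with low against high PMN (1.06), and the comparisons with PVD with CYTO are blue in nearly all members, beside all-gene medians of -0.36, -0.28 and -0.27 that became -0.063, 0.0051 and -0.0094 without s1239.

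Healthy cows were then compared with cows that developed PVD. PSMD10 had a lowest, median and highest value of 13.2, 21.1 and 41.1 CPM in healthy and of 4.67, 14.7 and 19.8 CPM in PVD cows. The log2 fold change was -0.73 (SE 0.25, limma adjusted p = 0.195), with 8 of 8 PVD cows below the healthy mean. PSMG1 was at 41.8, 56.6 and 72.4 CPM against 17.6, 45.6 and 56.6 CPM, for a log2 fold change of -0.50 (SE 0.20, limma adjusted p = 0.201), also lower in 8 of 8. These were the 2 members with an unadjusted p below 0.05, and the groups overlapped for both. Without s1239 the log2 fold changes were -0.54 for PSMD10 and -0.33 for PSMG1, while the all-gene median went from -0.13 to 0.0020. DESeq2 on the recovered reads gave -0.68 with an adjusted p of 0.0426 for PSMD10.

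PSME1 and PSME2 were 0.32 and 0.30 lower in PVD than in healthy cows (adjusted p = 0.340 and 0.318), as log2 fold changes of -0.32 and -0.30, with 7 of 8 PVD cows below the healthy mean for each. PSMB8 was 0.29 higher (limma adjusted p = 0.528), 0.17 higher without s1239 and 0.14 higher without s2520. PSMB9 went from 0.20 to -0.12 without s1239 and to -0.0078 without s2520. Of the standard subunits PSMB5 stood at -0.36, and -0.20 without s1239, and PSMB6 at -0.31, and -0.17 without s1239. All genes had a median of -0.13 and the members one of -0.25, which became 0.0020 and -0.092 without s1239, and 13 of 43 members lay above the all-gene median with and without that cow.

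Against healthy cows with high PMN, cows with PVD alone had log2 fold changes of 0.42 for PSMB8 and 0.64 for PSMB9, which fell to 0.06 and 0.15 without s2520. PVD with CYTO gave 0.47 and 0.59, and 0.19 and -0.18 without s1239. For PVD with CYTO 41 of 43 members had a negative log2 fold change, with a median of -0.44 beside -0.36 over all genes, and 16 of 43 lay above the all-gene median. Without s1239 these medians were -0.15 and -0.063, with 9 of 43 above. PVD with CYTO against CYTO with high PMN and against PVD alone gave members' medians of -0.37 and -0.33 beside -0.28 and -0.27 over all genes, with 12 and 16 of 43 above the all-gene median. Without s1239 the members' medians became -0.071 and -0.035 beside 0.0051 and -0.0094. PSMB9 differed by -0.26 and -0.05 in them, and by -1.03 and -0.82 without s1239.

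Over the 6 groups, the moderated F test passed 1 member, PSMD10 (F = 4.07, limma adjusted p = 0.0485), where 16.8% of all genes passed. Its group means were 27.7 ± 8.76 and 19.7 ± 4.77 CPM in healthy cows with low and high PMN, 25.0 ± 4.49 and 15.8 ± 1.36 CPM in CYTO cows with low and high PMN, 15.2 ± 4.18 in PVD alone and 13.5 ± 6.63 CPM in PVD with CYTO. The means of the low PMN groups were thus above those of the 4 high PMN groups. With a pseudocount of 0.1 CPM its adjusted p was 0.0519.

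The genes that work with the proteasome were described from a list of 19 accessory genes, which holds ubiquitin receptors, assembly factors and regulators of its transcription. In CYTO cows with high against low PMN, 4 of the 19 passed an adjusted p below 0.05, all lower and none beyond the minimum fold, beside 17.2% of all genes. These were NGLY1 (-0.74), UCHL5 (-0.45), RAD23B (-0.39) and KIAA0368 (-0.35), which are named after their values were seen. The all-gene median in this comparison was -0.14 in CPM, and these 4 genes were not examined under TMM scaling. UCHL5 is a deubiquitinase of the cap and RAD23B a shuttle for ubiquitinated substrates. POMP, the maturation protein of the core, differed by -0.13 (adjusted p = 0.381), and NFE2L1, the transcription factor that controls proteasome genes, by -0.24 (adjusted p = 0.245). The list for peptide loading onto MHC class I held 11 genes. Of these 1 of 11 was called in this comparison, TAP1, where 8.72% of all genes were called. TAP1 went from 78.3, 48.7, 39.0, 36.4 and 30.0 CPM to 121, 125, 78.4 and 99.6 CPM, for a log2 fold change of 1.23 (SE 0.27, limma adjusted p = 0.0140), with every cow with high PMN above every cow with low PMN. In the other 9 comparisons no gene of either list passed an adjusted p below 0.05 by limma. The neighbours of TAP1 in the genome, PSMB8 and PSMB9, were also higher in CYTO cows with high than with low PMN, without passing by limma.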

How the data were processed

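The authors sequenced stranded polyadenylated libraries, aligned the reads with STAR to UMD3.1, counted them per gene with featureCounts and deposited CPM without a scaling factor. Labels give Healthy, Sub-clinical and Clinical. The division by PMN and CYTO came from the study's animal table, and the column headers of the 6 deposited subgroup tables name all of these cows, beside 1 or 2 of the left-out cows in 4 of them. The authors' fold changes and p-values were not used, and 3 further cows that the study left out entered only 1 alternative.

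Genes with at least 1 CPM in 5 compared cows (4 where the smaller group had 4) were fitted with limma 3.58.1 (R 4.3.3) on log2(CPM + 1), using only the compared cows, with Benjamini-Hochberg adjustment over all genes and calls below 0.05 beyond a log2 fold change of 1. The plan named an edgeR test only for counts. Ratios were tested by exact permutation (SciPy 1.17.1) and correlations, 26 in all, of which 2 are not reported here, with 100000 resamples. All 314280 values were whole reads within 0.01, but 13 of 30 libraries had too few low values to check, and DESeq2 1.42.0 and edgeR 4.0.16 on these reads were alternatives. Other alternatives were a pseudocount of 0.1, no filter, TMM and median-of-ratios scaling, no minimum fold change and each cow left out. Scripts were tested on simulated data.

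Members and lists were chosen with earlier results of these data known. Named were the inducible genes, their counterparts, PSME3, called members, and the 2 highest and 2 lowest fold changes in healthy low against high PMN, healthy against CYTO with high PMN and healthy against PVD. PSMD8 and PSMG1 met this rule, and PSMB2 was named after its values were seen. Depth ran from 11922966 to 39202083 reads. Replicates are cows, and which cow was in which sequencing pool is not given in the sources used here.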

Additional observations from a re-analysis of the deposited data

Results flagged for a closer look

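Of 108 groups of 4 or 5 cows examined, over the named members and the ratios, 11 held a cow far from the others, and chance gives about 1 in 20 groups, or 5.4. Values are log2(CPM + 1). In cow s1239 (PVD with CYTO) PSMB9 was highest at 6.09 with the next cow at 3.20, while PSME4 (5.64) and PSMG1 (4.21) were lowest of their group. In s1183 (CYTO with low PMN) PSMD10 was highest at 5.08, and PSMB7 (6.59) and PSMD8 (6.57) were lowest. The others were single genes: PSME2 lowest in s1890 at 6.44 and PSMD3 lowest in s2570 at 5.69 among healthy cows with low PMN, PSMD3 lowest in s1831 at 6.08 among healthy cows with high PMN, and PSMD2 highest in s1944 at 8.83 among CYTO cows with high PMN. The log2 ratio of PSMB8 to PSMB5 was highest in s1570 among healthy cows with high PMN, at 0.53 with the next cow at -0.77. Among the 3 cows the study left out, PSMD8 reached 196.6 CPM in s2188, above the highest healthy cow at 165.3 CPM.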

How the results depend on the processing

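For the 68 values of members and ratios that the text gives, 1002 of 1068 alternative values kept their direction and their side of the threshold, 1 was weaker, 3 were stronger and 62, from 17 values, changed sign. For members in a comparison this threshold was the call, with a log2 fold change beyond 1, which no member met as reported. The count of kept values therefore mostly tells that the sign held. It does not register a change in adjusted p alone, such as that of PSMD10 and PSMG1 under TMM scaling. None of the 62 passed the threshold, and 57 belonged to a value smaller than its SE. Over every named member and ratio in every comparison 301 of 3322 changed sign. The count of members called between CYTO cows with low and high PMN was 0, became 3 with no minimum fold change, and ran from 0 to 1 with each cow left out. At an adjusted p alone 3 of 43 members passed there, beside 2612 of 10443 genes. Without s2039 it was 0 members (1092 of 10425 genes) and without s2064 it was 8 (3288 of 10430 genes). Under TMM scaling 4 members and 1777 of 10443 genes passed, and with edgeR 4 and 1785. Under median-of-ratios scaling it was 5 and 1786, and with DESeq2 14 and 3082. The split of higher to lower members was then 1 to 2 as reported, 4 to 0 under TMM and 12 to 2 with DESeq2. The count over the 6 groups was 1, became 3 under TMM scaling, 0 with a pseudocount of 0.1 CPM and 2 without s1239, an alternative chosen after seeing the data. Of all genes 16.8% passed as reported, and their shares in these alternatives are not given here. Signs changed as follows, in the order TMM, median-of-ratios, DESeq2 and edgeR where 4 values are given. Between CYTO cows with high PMN and PVD with CYTO, PSMB9 went from -0.26 to 0.026, 0.062, 1.34 and 1.19, PSME1 from -0.31 to 0.013 (median-of-ratios), 0.14 (DESeq2) and 0.068 (edgeR), and PSME2 from -0.32 to 0.11 (DESeq2) and 0.045 (edgeR). Between PVD alone and PVD with CYTO, PSMB9 went from -0.05 to 0.22, 0.26, 1.35 and 1.20. Between CYTO cows with low and high PMN, PSME1 went from -0.01 to 0.15, 0.14, 0.13 and 0.14, and PSME2 from -0.04 to 0.12, 0.11, 0.11 and 0.11. Between healthy and PVD cows PSMB9 was -0.17 with DESeq2, and between healthy and CYTO cows PSMB8 was 0.044 with the 3 further cows. With each cow left out, PSMB9 ran from -1.03 to 0.043 between CYTO with high PMN and PVD with CYTO, from -0.82 to 0.43 between the PVD groups, from -0.18 to 0.89 between healthy cows with high PMN and PVD with CYTO, from -0.12 to 0.39 between healthy and PVD cows and from -0.33 to 0.057 between healthy and CYTO cows, where PSMB8 ran from -0.11 to 0.11. PSME1 ran from -0.097 to 0.038 and PSME2 from -0.13 to 0.012 between CYTO cows with low and high PMN, and PSME1 from -0.070 to 0.18 between healthy and CYTO cows with high PMN. The PSMB9 to PSMB6 log2 ratio ran from -0.93 to 0.62 between CYTO with high PMN and PVD with CYTO, from -0.77 to 0.79 between the PVD groups and from -0.27 to 0.14 between healthy and CYTO cows, and PSMB8 to PSMB5 from -0.027 to 1.03 in the first of these, from -0.027 to 1.03 in the second and from -0.016 to 0.22 in the third. DESeq2 called 881 genes between healthy cows with low and high PMN, 700 between healthy and PVD cows and 129 between healthy and CYTO cows with high PMN, where limma called 0, 0 and 43. The cause was not tested. No paired analysis was possible because each cow belongs to a single group. Depth did not limit the members, of which each had at least 52 reads in every library, and counting error only is covered by that number.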
